A study of Triticum aestivum with 23 samples.

Results

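The genes described here are 90 wheat genes whose transcript level was lower in all 3 *tabri1* triple mutants than in every other genotype of the series. They were chosen from 106838 high-confidence gene models outside the study's list of BR pathway genes, in a table of 266760 genes. The mean TPM (reads per gene scaled for gene length and for the library total) of each genotype was put on a log2 scale after adding 0.5, and a gene was kept when the level in each triple mutant lay at least 0.7 below the lowest of *tabri1-bd*, *TaBRI1-NS* and Cadenza. On that scale 0.7 corresponds to 61.6% of the reference level. The 90 genes that met this were under the limit of 200, so none was trimmed. All genotype means entered the choice, so the falls themselves are given as a description and are not tested. The question asked of these genes is whether their fall was graded over the triple mutants.

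The study sequenced RNA from entire shoots (all tissue above ground) of seedlings with 2 leaves, grown under constant temperature and light, with several plants pooled in each replicate. The 23 libraries comprised 3 of the triple mutant *tabri1-a.1bd*, and 4 each of a further triple mutant, *tabri1-a.2bd*, of the last, *tabri1-a.3bd*, and of the double mutant *tabri1-bd*, the null segregant *TaBRI1-NS* and the cultivar Cadenza. All 3 triple mutants carried the premature stop codons of *tabri1-b* and *tabri1-d*, which the double mutant carried too, and they differed in the allele at *TaBRI1-A*. This was a premature stop codon in *tabri1-a.1* and an amino acid substitution in *tabri1-a.2*, in the last leucine-rich repeat, and in *tabri1-a.3*, in the kinase domain. *tabri1-a.1bd*, *tabri1-bd* and *TaBRI1-NS* descended from a cross of chemically mutagenised Cadenza lines that was backcrossed to Cadenza. *tabri1-a.2bd* and *tabri1-a.3bd* came from a further chemical mutagenesis of *tabri1-bd*, each from 1 mutagenised line. Both lines were crossed back to *tabri1-bd* and triple mutants were taken from the offspring for phenotyping, but the generation used for RNA is not given in the sources used here. The *TaBRI1-A* allele and other mutations of a line cannot be told apart.

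Brassinosteroids (BRs) are plant steroid hormones that promote cell elongation and leaf growth. BRI1 is the receptor kinase at the cell surface that binds them, and through a kinase cascade it controls transcription factors that raise some genes and lower others. Arabidopsis and rice plants without BRI1 function are severely dwarfed.

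The recovered reads numbered 22610853 to 38452115 per library, with a median of 30191070. The receptor transcripts were present in every triple mutant library, at 4.68 to 7.61 TPM for *TaBRI1-A* (TraesCS3A03G0629800) against 3.9 to 5.39 TPM in the libraries of the other genotypes. The identifiers carried no gene names, so the tissue was not checked against leaf markers. The first replicate of *tabri1-a.1bd* had 71 of the 90 genes at 0, against 62 and 46 in the other two, and results that rest on it are given without it below. In bulk tissue, fewer cells of a type and less RNA per cell cannot be told apart.

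The median gene of the 90 kept 0.145% of its mean level over *tabri1-bd*, *TaBRI1-NS* and Cadenza in *tabri1-a.1bd*, 17.0% for *tabri1-a.2bd* and 28.9% for *tabri1-a.3bd*. The fall on the log2(TPM + 0.5) scale was 2.37 in *tabri1-a.1bd* (quartiles 1.91 and 3.35), 1.64 in *tabri1-a.2bd* (1.32 and 2.23) and 1.25 in *tabri1-a.3bd* (1.05 and 1.61). Of the 90 genes, 44 were listed at 0 in all *tabri1-a.1bd* libraries, 7 in all *tabri1-a.2bd* libraries and 5 in all *tabri1-a.3bd* libraries. With each of these set to the level that 3 reads over the genotype would give, the median level left was 2.33% in *tabri1-a.1bd*, 17.0% for *tabri1-a.2bd* and 28.9% for *tabri1-a.3bd*. The median per gene of the *tabri1-a.2bd* fall over the *tabri1-a.1bd* fall was 0.744, and that of the *tabri1-a.3bd* fall over the *tabri1-a.1bd* fall was 0.517. For genes at 0 in *tabri1-a.1bd* the size of that fall depends on the TPM added. With 0.1 TPM added the 2 ratios were 0.61 and 0.41, and with 1 TPM added 0.78 and 0.58.

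**Figure D1:**
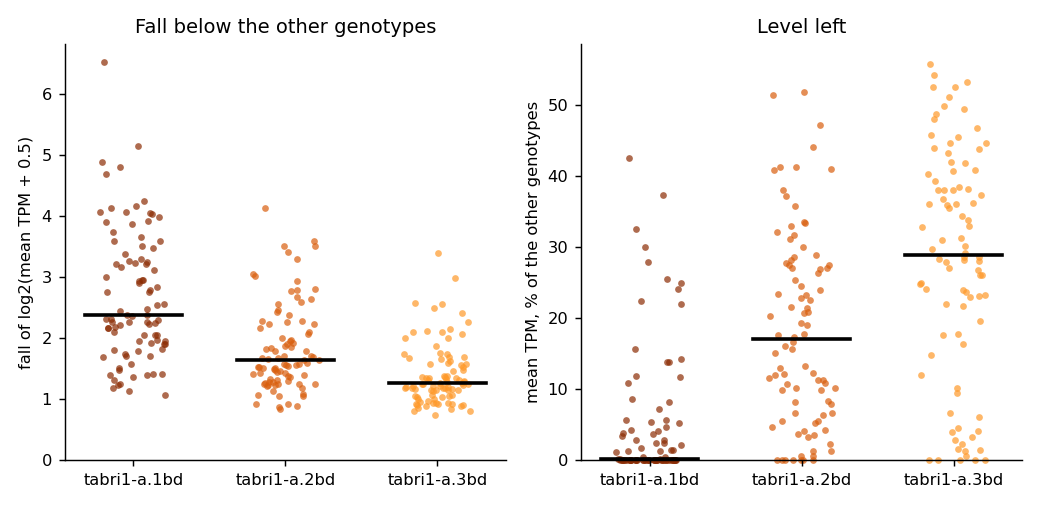
Each point is 1 of the 90 genes in 1 triple mutant, as the fall of log2(mean TPM + 0.5) below the mean of *tabri1-bd*, *TaBRI1-NS* and Cadenza (left) and as the mean TPM left, in percent of the same genotypes (right), with a bar at the median. The median fall is 2.37 in *tabri1-a.1bd*, 1.64 for *tabri1-a.2bd* and 1.25 for *tabri1-a.3bd*.

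The same order was seen in the single libraries, whose genotype means chose the genes. The median gene lay between -2.63 and -2.33 on the log2 scale in the *tabri1-a.1bd* libraries, relative to the mean of *tabri1-bd*, *TaBRI1-NS* and Cadenza. It lay between -1.83 and -1.62 in *tabri1-a.2bd* and between -1.40 and -1.15 in *tabri1-a.3bd*. In the double mutant it lay between -0.35 and 0.02, in *TaBRI1-NS* between 0.03 and 0.22 and in Cadenza between -0.04 and 0.21. The ranges of the 3 triple mutants did not overlap each other. The place of the double mutant near *TaBRI1-NS* and Cadenza, above the triple mutants, was fixed by the choice of the genes. The median over all tested genes stayed between -0.10 and 0.17 in every library.

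**Figure D2:**
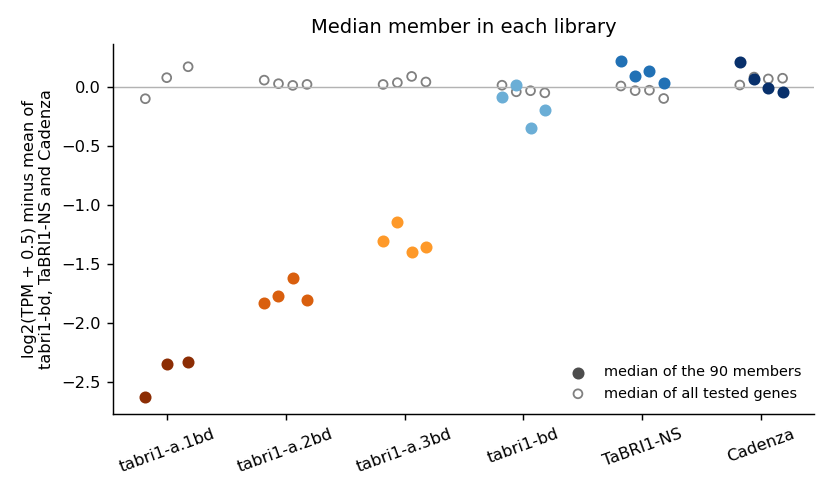
Each filled point is the median of the 90 genes in 1 library and each open point the median of all tested genes, as log2(TPM + 0.5) minus the mean of *tabri1-bd*, *TaBRI1-NS* and Cadenza. The 3 *tabri1-a.1bd* libraries lie between -2.63 and -2.33, below the 4 *tabri1-a.2bd* libraries (-1.83 to -1.62) and the 4 *tabri1-a.3bd* libraries (-1.40 to -1.15).

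Genotype means were lowest in *tabri1-a.1bd*, next in *tabri1-a.2bd* and then in *tabri1-a.3bd* in 55 of the 90 genes (61.1%), against 22.3% of the 83495 genes tested. Here and below, the genes tested include low-confidence models and genes not lowered in the triple mutants, which the rule left out. The rule also limits how far any triple mutant can lie above another, so the order among the 90 genes is in part set by it. The lowest of the 3 means was that of *tabri1-a.1bd* in 70 genes, of *tabri1-a.2bd* in 5 and of *tabri1-a.3bd* in 7, and 8 genes had a tie at the lowest mean. The *tabri1-a.2bd* mean was below the *tabri1-a.3bd* mean in 64 genes and above it in 24. In 25 genes the order continued with the double mutant above *tabri1-a.3bd* and below both *TaBRI1-NS* and Cadenza.

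The libraries of the 3 triple mutants lay below all libraries of the other genotypes in 45 of the 90 genes, against 0.157% of all genes tested, which the choice of the genes largely fixes. The least clear cases were at the threshold. TraesCS1D03G0047300 and TraesCS7B03G0329200 were just inside it, with smallest falls of 0.70, and TraesCS2D03G0870900 and TraesCS7A03G0272100 were just outside, with 0.69 and 0.68. TraesCS2D03G0870900 had means of 0.559 TPM in *tabri1-a.1bd*, of 3.15 TPM in *tabri1-a.2bd* and of 4.29 TPM in *tabri1-a.3bd*, against 7.24 TPM in *tabri1-bd*, 8.56 TPM in *TaBRI1-NS* and 8.67 TPM in Cadenza.

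To ask whether the steps between the triple mutants exceeded the spread between replicates, each pair was compared in one limma model of all 83495 genes with at least 0.5 TPM in at least 3 libraries. All 90 genes passed that filter. A gene was called when its p, adjusted by Benjamini-Hochberg over all genes tested, was at most 0.05. The rule treats the triple mutants alike, but its threshold removes genes that fell little in any one of them, and, since each must lie at least 0.7 below the other genotypes, it limits how far any triple mutant can lie above another. The counts of genes called higher, and of those called lower, between triple mutants are therefore in part set by the rule, and the shares over all genes tested are not. The replicates are pools of plants, and the p-values measure the spread between these pools.

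Between *tabri1-a.1bd* and *tabri1-a.2bd*, 34 of the 90 genes (37.8%) were called lower in *tabri1-a.1bd*, against 20.2% of all genes tested, and 0 were called higher, against 19.4% of all genes tested. The median difference was -0.54 on the log2(TPM + 0.5) scale, against 0.00 over all genes. In 37 genes every *tabri1-a.1bd* library lay below every *tabri1-a.2bd* library (17.3% of all genes tested), and in 1 gene every library lay above (18.8%). At an unadjusted p under 0.05, 42 of the 90 genes passed, and limma voom on the recovered reads called 41 lower and 1 higher. With array weights, which count poorly fitting libraries less, 17 were called.

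Between *tabri1-a.2bd* and *tabri1-a.3bd*, 15 of the 90 genes (16.7%) were called lower in *tabri1-a.2bd*, against 1.76% of all genes tested. None was called higher by limma, against 0.862% of all genes tested. With limma voom on the recovered reads, 11 were called lower and 0 higher. Of the 90 genes, 27 had an unadjusted p under 0.05 in this contrast. The median difference was -0.33, against -0.01 over all genes. In 19 genes every *tabri1-a.2bd* library lay below every *tabri1-a.3bd* library (5.91% of all genes tested), and in 0 genes above (3.96%).

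Between *tabri1-a.1bd* and *tabri1-a.3bd*, 50 of the 90 genes (55.6%) were called lower in *tabri1-a.1bd*, against 21.0% of all genes tested, and 0 were called higher, against 19.0%. The median difference was -1.04, against 0.00 over all genes. In 55 genes every *tabri1-a.1bd* library lay below every *tabri1-a.3bd* library (18.0% of all genes tested). At an unadjusted p under 0.05, 59 genes passed, limma voom called 54 lower and 0 higher, and array weights left 28 called. Without the first *tabri1-a.1bd* replicate the genes called lower numbered 44 in this contrast, against 17.7% of all genes tested. They numbered 29 between *tabri1-a.1bd* and *tabri1-a.2bd* (16.1% of all genes). Between *tabri1-a.2bd* and *tabri1-a.3bd* they numbered 18, where the share over all genes rose from 1.76% to 3.43%.

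These medians moved with the TPM added, and many of the genes were near 0 in *tabri1-a.1bd*. With 0.1 TPM added, the median difference was -1.28 between *tabri1-a.1bd* and *tabri1-a.2bd*, with -0.51 between *tabri1-a.2bd* and *tabri1-a.3bd*. With 1 TPM added the 2 medians were -0.34 and -0.22.

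**Figure D3:**
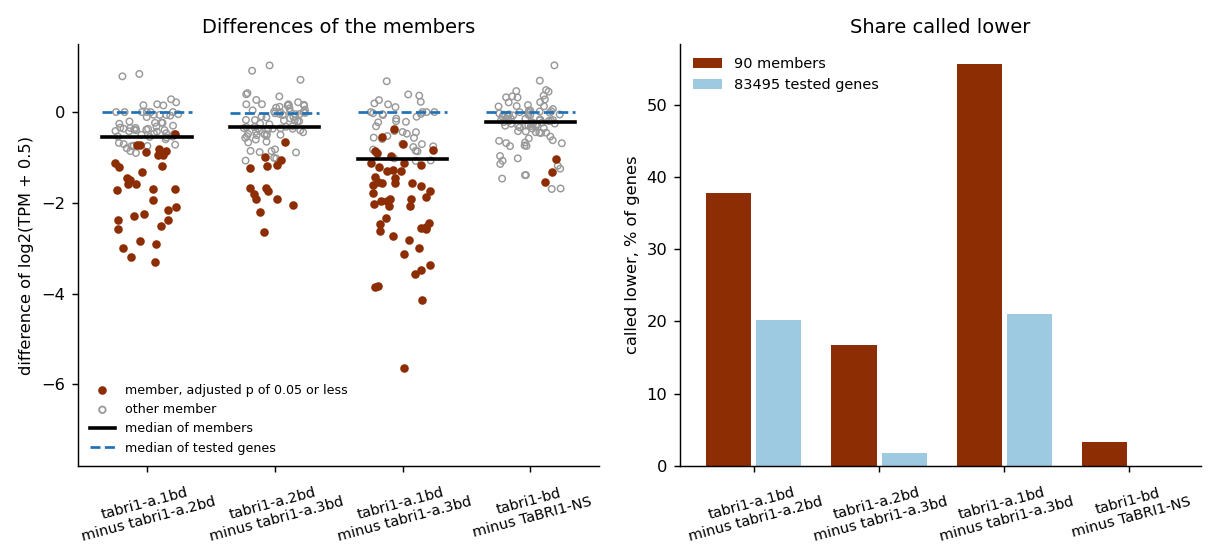
Left, each point is 1 of the 90 genes in 1 contrast, as the limma difference of log2(TPM + 0.5), filled where the adjusted p was 0.05 or less, with the median of the 90 genes (solid) and of all tested genes (dashed). Right, the percentage called lower is 37.8, 16.7, 55.6 and 3.3 among the 90 genes and 20.2, 1.76, 21.0 and 0.0527 among all genes tested, in the order of the axis.

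The calls at the 2 steps were then combined per gene. These combinations were not counted over all genes tested, so they only divide the 90 genes and are not compared with other genes. Both steps were called lower in 8 of the 90 genes, and 9 genes had no overlap between libraries at either step. Of the 2 steps, a further 26 genes were called lower at that between *tabri1-a.1bd* and *tabri1-a.2bd* alone, and 7 at that between *tabri1-a.2bd* and *tabri1-a.3bd* alone. Another 11 were called at neither step but were called lower in *tabri1-a.1bd* than in *tabri1-a.3bd*. The remaining 38 were called in no contrast between triple mutants. Calls were also counted by level, but not over all genes tested at the same levels, so they only divide the 90 genes. Of the 37 genes with a mean of at least 5 TPM in *TaBRI1-NS*, 27 were called lower in *tabri1-a.1bd* than in *tabri1-a.3bd*. In that group 20 were called lower in *tabri1-a.1bd* than in *tabri1-a.2bd* and 12 lower in *tabri1-a.2bd* than in *tabri1-a.3bd*. Of the 53 rarer genes these were 23, 14 and 3. The median gene had 0 reads per library in *tabri1-a.1bd*, then 11 in *tabri1-a.2bd*, then 22.5 in *tabri1-a.3bd*. It had 65.2 in *tabri1-bd*, 100.2 in *TaBRI1-NS* and 99.5 in Cadenza. Small steps in the rarer genes may have gone undetected, which was not tested.

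The widest difference between *tabri1-a.1bd* and *tabri1-a.3bd* among the 90 genes, -5.63 ± 0.28, was that of TraesCS6A03G0939400, listed by the study with oxidoreductase and metal ion binding terms. It had 0.32, 0 and 0 TPM in the *tabri1-a.1bd* libraries, 5.4, 2.49, 6.49 and 3.35 TPM in those of *tabri1-a.2bd*, and 30.1, 26.2, 29.7 and 29.2 TPM in those of *tabri1-a.3bd*. The *tabri1-bd* libraries were at 71.6, 51.5, 40.7 and 38.0 TPM, the *TaBRI1-NS* libraries at 57.1, 52.9, 55.3 and 31.1 TPM and the Cadenza libraries at 76.9, 82.2, 63.9 and 54.5 TPM. No library of one triple mutant overlapped those of another, and *tabri1-a.3bd* kept 51.2% of the level of the other genotypes, *tabri1-a.2bd* 7.87% and *tabri1-a.1bd* 0.189%. The difference was -2.98 ± 0.28 (SE) between *tabri1-a.1bd* and *tabri1-a.2bd*, with -2.65 ± 0.26 between *tabri1-a.2bd* and *tabri1-a.3bd* (limma adjusted p = 2.9e-08 and 1.1e-06).

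TraesCS2D03G0057300 was the most abundant of the 90 genes. It was found in none of the study's term lists, several of which were held only in part. It had 0.362, 4.87 and 4.16 TPM in the *tabri1-a.1bd* libraries, 15.9, 7.83, 13.2 and 6.39 TPM in those of *tabri1-a.2bd*, and 56.8, 43.3, 37.5 and 60.5 TPM in those of *tabri1-a.3bd*. The values were 103, 92.1, 96.5 and 74.9 TPM in *tabri1-bd*, 83.3, 84.2, 91.5 and 76.1 TPM in *TaBRI1-NS*, and 114, 112, 86.8 and 115 TPM in Cadenza. The triple mutants again did not overlap, and *tabri1-a.3bd* kept 52.6% of the level of the other genotypes. The differences were -1.94 ± 0.42 between *tabri1-a.1bd* and *tabri1-a.2bd*, with -2.20 ± 0.39 between *tabri1-a.2bd* and *tabri1-a.3bd* (limma adjusted p = 0.00085 and 0.0023).

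TraesCS6B03G1164000 was listed at 0 in every *tabri1-a.1bd* library. It was at 1.55, 1.03, 1.81 and 2.43 TPM in *tabri1-a.2bd* and at 6.53, 8.11, 5.72 and 6.65 TPM in *tabri1-a.3bd*. The *tabri1-bd* libraries were at 11.4, 13.5, 11.5 and 10.4 TPM, those of *TaBRI1-NS* at 12.0, 12.9, 12.7 and 8.51 TPM, and those of Cadenza at 19.3, 17.9, 18.8 and 17.4 TPM. At a floor of 3 reads over the genotype, *tabri1-a.1bd* was at least 566-fold lower than the mean of the other 3 genotypes. The step between *tabri1-a.2bd* and *tabri1-a.3bd* was -1.75 ± 0.16 (limma adjusted p = 5.4e-07).

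In other abundant genes the step lay between *tabri1-a.1bd* and the other triple mutants. TraesCS7A03G0345900 had 6.31, 2.79 and 3.2 TPM in the *tabri1-a.1bd* libraries, 20.7, 20.4, 23.3 and 19.2 TPM in those of *tabri1-a.2bd*, and 26.4, 32.8, 24.9 and 22.2 TPM in those of *tabri1-a.3bd*. The other genotypes ranged from 42.8 to 61.5 TPM in *tabri1-bd*, 44.8 to 64.7 TPM in *TaBRI1-NS* and 37.0 to 55.6 TPM in Cadenza. Only *tabri1-a.1bd* stood clear of the other triple mutants (-2.29 ± 0.21 against *tabri1-a.2bd*, limma adjusted p = 2.3e-08). The libraries of *tabri1-a.2bd* and *tabri1-a.3bd* overlapped, with a difference of -0.33 ± 0.19 (limma adjusted p = 0.475).

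TraesCS7A03G0520700 followed the same pattern, with 1.94, 0.218 and 0.632 TPM in the *tabri1-a.1bd* libraries, 11.4, 12.2, 10.7 and 13.3 TPM in those of *tabri1-a.2bd*, and 17.3, 14.4, 12.3 and 10.6 TPM in those of *tabri1-a.3bd*. It ranged from 20.1 to 29.2 TPM in *tabri1-bd*, from 19.2 to 26.9 TPM in *TaBRI1-NS* and from 25.0 to 30.0 TPM in Cadenza. The difference between *tabri1-a.1bd* and *tabri1-a.2bd*, -3.30 ± 0.26, had the largest size of the 34 called in that contrast (limma adjusted p = 3.4e-09). TraesCS2B03G1425400, at 0, 2.47 and 2.42 TPM in *tabri1-a.1bd* and 13.9, 14.5, 13.7 and 15.5 TPM in *tabri1-a.2bd*, had a difference of -3.19 ± 0.39 (limma adjusted p = 1.5e-06). Its *tabri1-a.3bd* libraries, at 20.7, 17.2, 10.8 and 18.8 TPM, overlapped those of *tabri1-a.2bd*, and the libraries of the other genotypes were at 24.5 to 47.1 TPM.

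In a smaller set the step lay between *tabri1-a.2bd* and *tabri1-a.3bd*. TraesCS2A03G1350400, listed as a monooxygenase and heme binding gene, had 0.332, 0.591 and 0.461 TPM in the *tabri1-a.1bd* libraries, 0.365, 0.347, 0.19 and 0.523 TPM in those of *tabri1-a.2bd*, and 2.12, 3.54, 2.19 and 2.2 TPM in those of *tabri1-a.3bd*. It ranged from 6.16 to 8.14 TPM in *tabri1-bd*, from 8.9 to 11.5 TPM in *TaBRI1-NS* and from 6.95 to 10.4 TPM in Cadenza. The *tabri1-a.1bd* and *tabri1-a.2bd* libraries overlapped and both lay below *tabri1-a.3bd*. The difference was 0.17 ± 0.18 between *tabri1-a.1bd* and *tabri1-a.2bd* (limma adjusted p = 0.48), with -1.80 ± 0.17 between *tabri1-a.2bd* and *tabri1-a.3bd* (limma adjusted p = 4.6e-07).

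TraesCS2A03G0046800, listed under lipid biosynthesis, was likewise near 0 in *tabri1-a.1bd* and *tabri1-a.2bd*. It was listed at 0 in *tabri1-a.1bd*, at 0.468, 0, 0.104 and 0.143 TPM in *tabri1-a.2bd* and at 2.3, 2.4, 1.85 and 2.39 TPM in *tabri1-a.3bd*, against 4.27 to 9.6 TPM in *tabri1-bd*, 3.38 to 7.48 TPM in *TaBRI1-NS* and 9.18 to 14.5 TPM in Cadenza. The step between *tabri1-a.2bd* and *tabri1-a.3bd* was -2.05 ± 0.25 (limma adjusted p = 4.3e-05).

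Other genes were low in all 3 triple mutants, with smaller differences among them. TraesCS2A03G0931100 had 0.701, 2.9 and 1.86 TPM in the *tabri1-a.1bd* libraries, 4.62, 2.04, 4.34 and 3.1 TPM in those of *tabri1-a.2bd*, and 2.58, 3.64, 4.54 and 1.76 TPM in those of *tabri1-a.3bd*. The *tabri1-bd* libraries were at 19.1, 17.8, 17.9 and 19.9 TPM, the *TaBRI1-NS* libraries at 22.0, 21.4, 20.4 and 24.8 TPM and the Cadenza libraries at 26.4, 22.0, 19.7 and 22.5 TPM. The triple mutants overlapped each other and were all far below the rest. The difference between *tabri1-a.2bd* and *tabri1-a.3bd* was 0.16 ± 0.27 (limma adjusted p = 0.86), and that between *tabri1-a.1bd* and *tabri1-a.2bd* was called although their libraries overlapped (-0.87 ± 0.29, limma adjusted p = 0.021).

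TraesCS1A03G0874400 had the largest fall of the 90 genes when each gene is ranked by the smallest of its 3 falls. It was listed at 0 in *tabri1-a.1bd*, at 0, 0.197, 0.527 and 0.322 TPM in *tabri1-a.2bd* and at 0.626, 0, 0 and 0.209 TPM in *tabri1-a.3bd*. The *tabri1-bd* libraries were at 3.3, 5.21, 2.94 and 4.28 TPM, those of *TaBRI1-NS* at 9.45, 11.4, 10.7 and 8.05 TPM and those of Cadenza at 11.3, 6.14, 8.34 and 8.25 TPM. Its triple mutants were all near 0, and the double mutant stood between them and *TaBRI1-NS*. TraesCS1D03G0849100 was listed at 0 in all 11 triple mutant libraries, against 1.51, 1.5, 0.813 and 0.518 TPM in *tabri1-bd*, 1.57, 4.1, 4.29 and 2.32 TPM in *TaBRI1-NS* and 2.65, 1.00, 2.09 and 2.01 TPM in Cadenza.

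In 5 of the 90 genes the highest of the 3 means was that of *tabri1-a.1bd*. One of these, TraesCS5D03G0659000, had 36.1, 12.0 and 9.72 TPM in the *tabri1-a.1bd* libraries, 9.02, 10.4, 9.23 and 7.06 TPM in those of *tabri1-a.2bd*, and 27.5, 11.9, 11.7 and 11.0 TPM in those of *tabri1-a.3bd*. It was at 54.2, 59.7, 49.8 and 17.7 TPM in *tabri1-bd*, 56.2, 20.5, 93.1 and 46.0 TPM in *TaBRI1-NS* and 40.4, 70.7, 58.3 and 51.7 TPM in Cadenza. Its values scattered widely, 1 library of each of *tabri1-a.1bd* and *tabri1-a.3bd* lay within the range of the other genotypes, and no contrast between triple mutants was called (limma adjusted p = 0.18, 0.54 and 0.81).

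**Figure D4:**
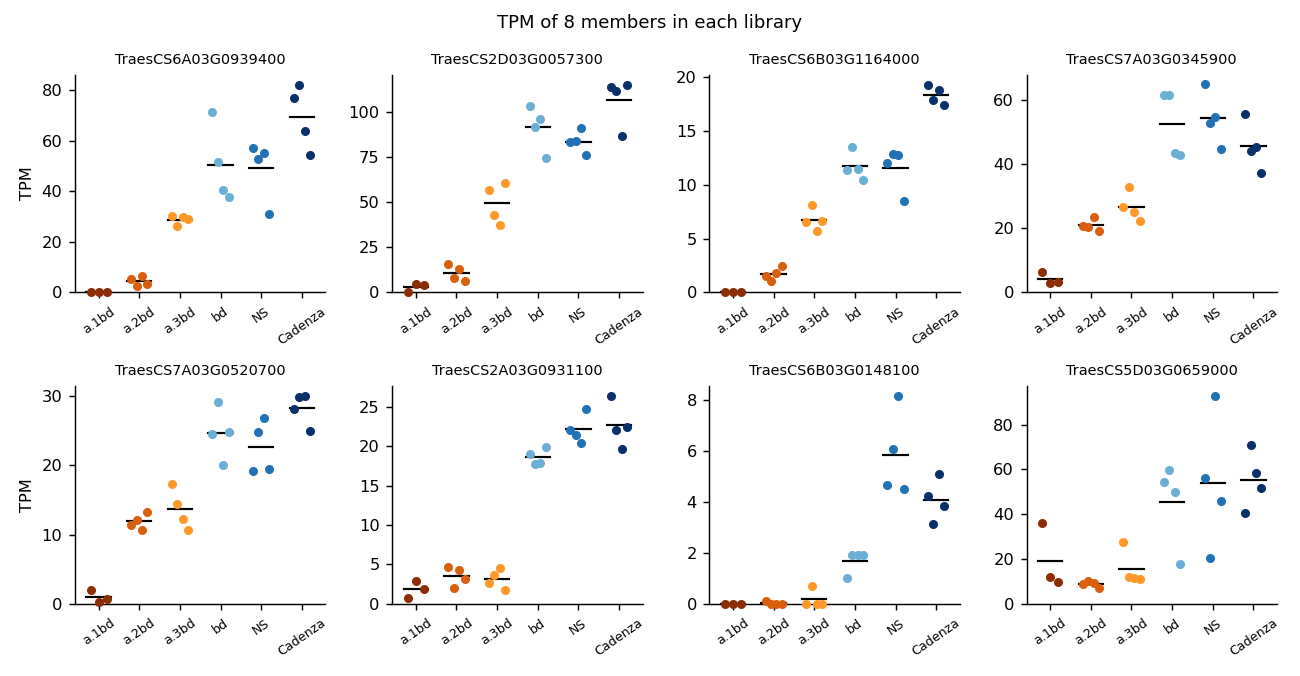
TPM of 8 of the 90 genes in each library, with a bar at the genotype mean and the genotypes written without *tabri1* or *TaBRI1*. TraesCS6A03G0939400 and TraesCS6B03G1164000 step up through the triple mutants, TraesCS7A03G0520700 is low mainly in *tabri1-a.1bd*, and TraesCS2A03G0931100 is at 0.701 to 4.62 TPM in all 3.

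The double mutant has lost 2 of the 3 *TaBRI1* copies, so it was compared with *TaBRI1-NS*. The means of *tabri1-bd*, *TaBRI1-NS* and Cadenza all entered the choice of the genes. Counts of the 90 genes between these genotypes are therefore in part set by the rule, and the shares over all genes tested are not. Its mean was below those of both *TaBRI1-NS* and Cadenza in 48 of the 90 genes, between them in 34 and above both in 8. The median difference between *tabri1-bd* and *TaBRI1-NS* was -0.23, against 0.00 over all genes, with 69 genes below 0. In 17 genes every *tabri1-bd* library lay below every *TaBRI1-NS* library (1.84% of all genes tested), and in 1 gene above (3.15%). By limma, 3 of the 90 genes (3.3%) were called lower, against 0.0527% of all genes tested, and 0 were called higher, against 0.0731%. At an unadjusted p under 0.05, 21 of the 90 genes passed, and limma voom called 3 lower and 0 higher. The count of 3 fell to 0 with 0.1 TPM added and without replicate 3 of *TaBRI1-NS*, and to 1 without replicate 1 of *tabri1-bd*.

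The 3 genes lie on chromosomes 6A, 6B and 6D. TraesCS6B03G0148100 was listed at 0 in *tabri1-a.1bd*, was above 0 in 1 library of *tabri1-a.2bd* (0.0913 TPM) and in 1 of *tabri1-a.3bd* (0.693 TPM), and had 1.00, 1.91, 1.9 and 1.9 TPM in *tabri1-bd*, against 4.67, 6.05, 8.14 and 4.51 TPM in *TaBRI1-NS* and 4.24, 3.14, 5.08 and 3.82 TPM in Cadenza. The double mutant did not overlap *TaBRI1-NS* and lay between it and the triple mutants (-1.53 ± 0.25, limma adjusted p = 0.0095).

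TraesCS6D03G0113000 was above 0 in 1 triple mutant library, at 0.038 TPM, and had 0.337, 1.37, 1.11 and 0.721 TPM in *tabri1-bd*, against 1.76, 3.1, 3.85 and 2.79 TPM in *TaBRI1-NS* and 2.44, 1.95, 1.8 and 1.51 TPM in Cadenza. TraesCS6A03G0106500 was at 0 in *tabri1-a.1bd*, at most at 0.179 TPM in *tabri1-a.2bd*, at most at 0.465 TPM in *tabri1-a.3bd*, and had 1.36, 1.96, 2.03 and 2.18 TPM in *tabri1-bd*, against 3.9, 5.17, 4.39 and 4.03 TPM in *TaBRI1-NS* and 4.92, 3.48, 5.1 and 2.66 TPM in Cadenza. In both genes the double mutant took a middle level, with differences from *TaBRI1-NS* of -1.31 ± 0.22 for TraesCS6D03G0113000 and -1.04 ± 0.20 for TraesCS6A03G0106500 (limma adjusted p = 0.0095 and 0.036). The neighbour TraesCS6A03G0106400 had a like difference, -1.18 ± 0.24, that was not called (limma adjusted p = 0.057). TraesCS6A03G0106400 and TraesCS6A03G0106500 stand next to each other in identifier order, as do TraesCS6D03G0113000 and TraesCS6D03G0113100, and whether reads were shared between neighbours was not tested.

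Between *TaBRI1-NS* and Cadenza, 3 of the 90 genes were called lower in *TaBRI1-NS*, against 1.95% of all genes tested, and 2 higher, against 0.28%. Rescaled by median-of-ratios size factors, these were 1 lower and 2 higher. The 5 calls numbered 1 to 3 without any one Cadenza library, 3 without replicate 2 of *TaBRI1-NS*, and 2 without its replicate 3 or 4. Among the lower genes were TraesCS6B03G1164000 (-0.66 ± 0.16) and TraesCS2A03G0046800 (-1.08 ± 0.25), with limma adjusted p = 0.034 and 0.028. The rest, named after their values were seen, were TraesCS2B03G0065300 (-0.98 ± 0.20), TraesCS7D03G0275300 (1.51 ± 0.34) and TraesCS7D03G1078400 (1.39 ± 0.36). The median difference was 0.09, against -0.09 over all genes.

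The only annotation of the identifiers came from the study's functional term lists. These were drawn from genes the study called in these same libraries and are therefore not independent evidence of a direction. Counts of calls over the lists below are in part set by this, and the shares over all genes tested are not. Of the 90 genes, 27 stood in at least 1 term and 63 were found in none of the lists as held. Several lists were held only in part, so the counts for fatty acid and lipid, acyltransferase and monooxygenase terms below are minimum counts. For the same reason 27 is a minimum and 63 a maximum. The terms that recurred were fatty acid or lipid terms, fatty acyl-CoA reductase included (11 genes), acyltransferase activity (7), monooxygenase activity or heme binding (6) and flavonoid biosynthesis (3), and some genes stood in more than 1.

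Of the genes found under fatty acid or lipid terms, all 11 had their lowest mean in *tabri1-a.1bd* and their highest in *tabri1-a.3bd* among the triple mutants (graded order, 22.3% of all genes tested), and all 11 were called lower in *tabri1-a.1bd* than in *tabri1-a.3bd* (21.0%). Of these, 7 were called lower in *tabri1-a.1bd* than in *tabri1-a.2bd* (20.2%) and 2 lower in *tabri1-a.2bd* than in *tabri1-a.3bd* (1.76%). The median level left was 0% in *tabri1-a.1bd*, 21.5% for *tabri1-a.2bd* and 35.9% for *tabri1-a.3bd*. In the double mutant 0 of the 11 were called lower than in *TaBRI1-NS* by limma (0.0527% of all genes tested), with a median difference of -0.15.

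Very-long-chain fatty acids are made by an elongase complex in which a 3-hydroxyacyl-CoA dehydratase carries out one step, and in plants they are precursors of cuticular waxes and membrane lipids. Of the 5 genes of the very-long-chain 3-hydroxyacyl-CoA dehydratase list, 2 were among the 90. TraesCS3B03G0208300 was listed at 0 in *tabri1-a.1bd* and had 0.892, 1.67, 0.371 and 1.4 TPM in the *tabri1-a.2bd* libraries and 1.71, 1.61, 1.13 and 1.32 TPM in those of *tabri1-a.3bd*, against 4.38, 3.92, 4.18 and 2.99 TPM in *tabri1-bd*, 3.7, 4.97, 3.89 and 4.76 TPM in *TaBRI1-NS* and 5.02, 3.27, 3.1 and 3.81 TPM in Cadenza. The difference between *tabri1-a.1bd* and *tabri1-a.2bd* was -1.58 ± 0.24 (limma adjusted p = 1.8e-05), and *tabri1-a.2bd* and *tabri1-a.3bd* overlapped.

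TraesCS3D03G0148900 was also listed at 0 in *tabri1-a.1bd*. It had 1.51, 0.385, 1.23 and 0.764 TPM in the *tabri1-a.2bd* libraries and 0.991, 2.01, 0.708 and 0.525 TPM in those of *tabri1-a.3bd*, and ranged from 2.28 to 3.34 TPM in *tabri1-bd*, from 2.86 to 4.6 TPM in *TaBRI1-NS* and from 1.93 to 3.34 TPM in Cadenza. Its *tabri1-a.3bd* and Cadenza libraries overlapped. All 5 genes of the list, including the other 3, were called lower in *tabri1-a.1bd* than in *tabri1-a.2bd*, with a median difference of -1.49 (20.2% of all genes tested were called so), and 1 of the 5 lower in *tabri1-a.2bd* than in *tabri1-a.3bd* (1.76%). The list held only genes the study had called in these libraries, so these counts are in part set in advance.

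Fatty acyl-CoA reductases turn activated fatty acids into the primary alcohols of surface waxes. Of the 5 genes listed as alcohol-forming fatty acyl-CoA reductases, 2 were among the 90. TraesCS3D03G0023400 was listed at 0 in *tabri1-a.1bd* and had 0.531, 0.262, 0.207 and 0.333 TPM in the *tabri1-a.2bd* libraries and 0.801, 1.49, 1.96 and 1.51 TPM in those of *tabri1-a.3bd*, against 3.14, 3.08, 2.42 and 2.25 TPM in *tabri1-bd*, 4.29, 3.32, 3.38 and 2.56 TPM in *TaBRI1-NS* and 2.61, 4.31, 2.05 and 3.47 TPM in Cadenza. It was 1 of the 8 genes called at both steps (-0.72 ± 0.23 and -1.20 ± 0.21, limma adjusted p = 0.016 and 0.0024).

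TraesCS1D03G0041600 had means of 0.0223 ± 0.0385 TPM in *tabri1-a.1bd* (SD, n = 3), 0.248 ± 0.187 TPM in *tabri1-a.2bd*, then 0.472 ± 0.0656 TPM in *tabri1-a.3bd*, against 1.44 ± 0.125 TPM in *tabri1-bd*, 1.79 ± 0.392 TPM in *TaBRI1-NS* and 1.73 ± 0.182 TPM in Cadenza (SD, n = 4 each). All 5 reductase genes were called lower in *tabri1-a.1bd* than in *tabri1-a.2bd*, against 20.2% of all genes tested. Another of them, TraesCS7A03G0214000, named after its values were seen, was not of this kind, with means of 0.524 TPM in *tabri1-a.1bd*, of 2.26 TPM in *tabri1-a.2bd* and of 2.23 TPM in *tabri1-a.3bd*, against 1.31 TPM in *tabri1-bd*, 1.07 TPM in *TaBRI1-NS* and 1.3 TPM in Cadenza.

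The whole list of fatty acid biosynthesis held 21 genes, of which 7 were among the 90. Over the list, 13 genes were called lower and 2 higher in *tabri1-a.1bd* than in *tabri1-a.2bd* (20.2% and 19.4% of all genes tested). In *tabri1-a.2bd* 3 genes were lower and 1 higher than in *tabri1-a.3bd* (1.76% and 0.862%), and in *tabri1-a.1bd* 16 were lower and 2 higher than in *tabri1-a.3bd* (21.0% and 19.0%). The medians of the 21 genes were -0.74, -0.31 and -0.85 in these contrasts. TraesCS7A03G0256100, TraesCS2A03G1180500 and TraesCS6D03G0750100 were listed at 0 in *tabri1-a.1bd*, and their means were 0.385, 0.496 and 0.125 TPM in *tabri1-a.2bd* and 0.394, 0.904 and 0.416 TPM in *tabri1-a.3bd*. The same genes were at 2.00, 2.15 and 1.27 TPM in *tabri1-bd*, 1.31, 2.46 and 1.11 TPM in *TaBRI1-NS*, and 2.07, 2.28 and 1.30 TPM in Cadenza.

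Flavonoids are phenolic pigments and protectants of leaves. The study's list held 5 genes, of which 3 were among the 90. Of the 5, 4 were called lower in *tabri1-a.1bd* than in *tabri1-a.2bd* (20.2% of all genes tested) and 1 lower in *tabri1-a.2bd* than in *tabri1-a.3bd* (1.76%). TraesCS2A03G0052400 was listed at 0 in *tabri1-a.1bd* and had 0.852, 1.23, 1.01 and 0.504 TPM in the *tabri1-a.2bd* libraries and 2.2, 2.41, 0.867 and 1.27 TPM in those of *tabri1-a.3bd*, against 10.8, 7.62, 3.7 and 3.44 TPM in *tabri1-bd*, 9.46, 4.61, 10.5 and 3.95 TPM in *TaBRI1-NS* and 7.51, 8.33, 7.26 and 4.42 TPM in Cadenza. The *tabri1-a.1bd* libraries lay below those of *tabri1-a.2bd* (-1.46 ± 0.37, limma adjusted p = 0.0036), which overlapped those of *tabri1-a.3bd*.

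TraesCS2D03G0064300 was listed at 0 in *tabri1-a.1bd*, had 3.22, 1.75, 1.85 and 1.86 TPM in the *tabri1-a.2bd* libraries and 2.61, 4.1, 2.86 and 2.72 TPM in those of *tabri1-a.3bd*, and ranged from 4.57 to 9.07 TPM in *tabri1-bd*, from 5.31 to 8.01 TPM in *TaBRI1-NS* and from 6.07 to 12.9 TPM in Cadenza. At a floor of 3 reads over the genotype, *tabri1-a.1bd* was at least 262-fold lower than the other 3 genotypes. The rarest of the flavonoid genes, TraesCS2D03G0045100, had means of 0 TPM in *tabri1-a.1bd*, of 0 TPM in *tabri1-a.2bd* and of 0.0172 TPM in *tabri1-a.3bd*, against 0.861 TPM in *tabri1-bd*, 1.2 TPM in *TaBRI1-NS* and 1.37 TPM in Cadenza, and no step between triple mutants could be seen at that level.

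Acyltransferases move acyl groups onto lipids, phenolics and other acceptors, and the 7 genes with this term had the widest median step between *tabri1-a.1bd* and *tabri1-a.2bd* of the 4 term groups. All 7 were called lower in *tabri1-a.1bd* than in *tabri1-a.2bd* (median -2.24), against 20.2% of all genes tested. Between *tabri1-a.2bd* and *tabri1-a.3bd* limma called 0 of the 7 lower at the adjusted p (median -0.43), a count near the background of 1.76% of all genes tested. The level left was 0% to 1.46% in *tabri1-a.1bd*, 13.2% to 37.2% for *tabri1-a.2bd* and 24.8% to 45.7% for *tabri1-a.3bd*. The means were in graded order in all 7 (22.3% of all genes tested).

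TraesCS7B03G0710000, the acyltransferase gene of the highest mean in *TaBRI1-NS*, had 0, 0.21 and 0.118 TPM in the *tabri1-a.1bd* libraries, 2.25, 3.33, 2.77 and 2.31 TPM in those of *tabri1-a.2bd*, and 3.1, 3.86, 3.81 and 3.33 TPM in those of *tabri1-a.3bd*. The *tabri1-bd* libraries were at 10.3, 7.7, 10.2 and 7.89 TPM, those of *TaBRI1-NS* at 8.78, 15.5, 12.7 and 9.11 TPM and those of Cadenza at 10.1, 7.42, 8.72 and 8.3 TPM. The triple mutants lay below every other library, and the difference between *tabri1-a.1bd* and *tabri1-a.2bd* was -2.38 ± 0.19 (limma adjusted p = 2.7e-09). TraesCS2D03G0053400 had means of 0.0322 TPM in *tabri1-a.1bd*, of 2.84 TPM in *tabri1-a.2bd* and of 2.91 TPM in *tabri1-a.3bd*, against 8.18 TPM in *tabri1-bd*, 6.4 TPM in *TaBRI1-NS* and 8.31 TPM in Cadenza.

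Monooxygenases with heme, many of them cytochromes P450, oxidise hormones, fatty acids and secondary metabolites. Of the 6 genes with these terms, 5 were in graded order (22.3% of all genes tested). By limma 4 were called lower in *tabri1-a.1bd* than in *tabri1-a.2bd* (20.2%), 4 lower in *tabri1-a.2bd* than in *tabri1-a.3bd* (1.76%), and 6 lower in *tabri1-a.1bd* than in *tabri1-a.3bd* (21.0%). TraesCS5B03G0837300 was the clearest, with 0, 0 and 0.083 TPM in the *tabri1-a.1bd* libraries, 2.53, 3.11, 4.05 and 4.4 TPM in those of *tabri1-a.2bd*, and 6.68, 4.83, 5.84 and 5.68 TPM in those of *tabri1-a.3bd*. Its libraries were at 14.1, 13.3, 12.1 and 12.3 TPM in *tabri1-bd*, 17.3, 16.7, 14.8 and 15.4 TPM in *TaBRI1-NS* and 17.2, 16.3, 14.7 and 17.7 TPM in Cadenza. All 3 triple mutants and the double mutant were separate from each other, with steps of -2.91 ± 0.14 and -0.65 ± 0.13 between the triple mutants (limma adjusted p = 2.6e-12 and 0.0076). Every double mutant library lay below every *TaBRI1-NS* library, with a difference of -0.30 ± 0.13 that was not called over all genes (unadjusted p = 0.034, limma adjusted p = 1.0).

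TraesCS2B03G0449100 had 0, 0 and 0.138 TPM in the *tabri1-a.1bd* libraries, 0.131, 0.345, 0.179 and 0.164 TPM in those of *tabri1-a.2bd*, and 1.19, 0.858, 1.28 and 1.31 TPM in those of *tabri1-a.3bd*, and ranged from 2.81 to 4.03 TPM in *tabri1-bd*, 3.52 to 4.29 TPM in *TaBRI1-NS* and 3.48 to 4.84 TPM in Cadenza. Its main step was between *tabri1-a.2bd* and *tabri1-a.3bd* (-1.23 ± 0.15, limma adjusted p = 4e-05). TraesCS4A03G0014900 differed in this, with means of 0 TPM in *tabri1-a.1bd*, of 1.04 TPM in *tabri1-a.2bd* and of 1.23 TPM in *tabri1-a.3bd*, against 3.67 TPM in *tabri1-bd*, 4.81 TPM in *TaBRI1-NS* and 4.47 TPM in Cadenza. TraesCS6B03G1283200, listed under oxidoreductase activity, was called at both steps, with means of 0.546 TPM in *tabri1-a.1bd*, of 1.23 TPM in *tabri1-a.2bd* and of 3.09 TPM in *tabri1-a.3bd*, against 7.33 TPM in *tabri1-bd*, 8.79 TPM in *TaBRI1-NS* and 6.84 TPM in Cadenza.

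**Figure D5:**
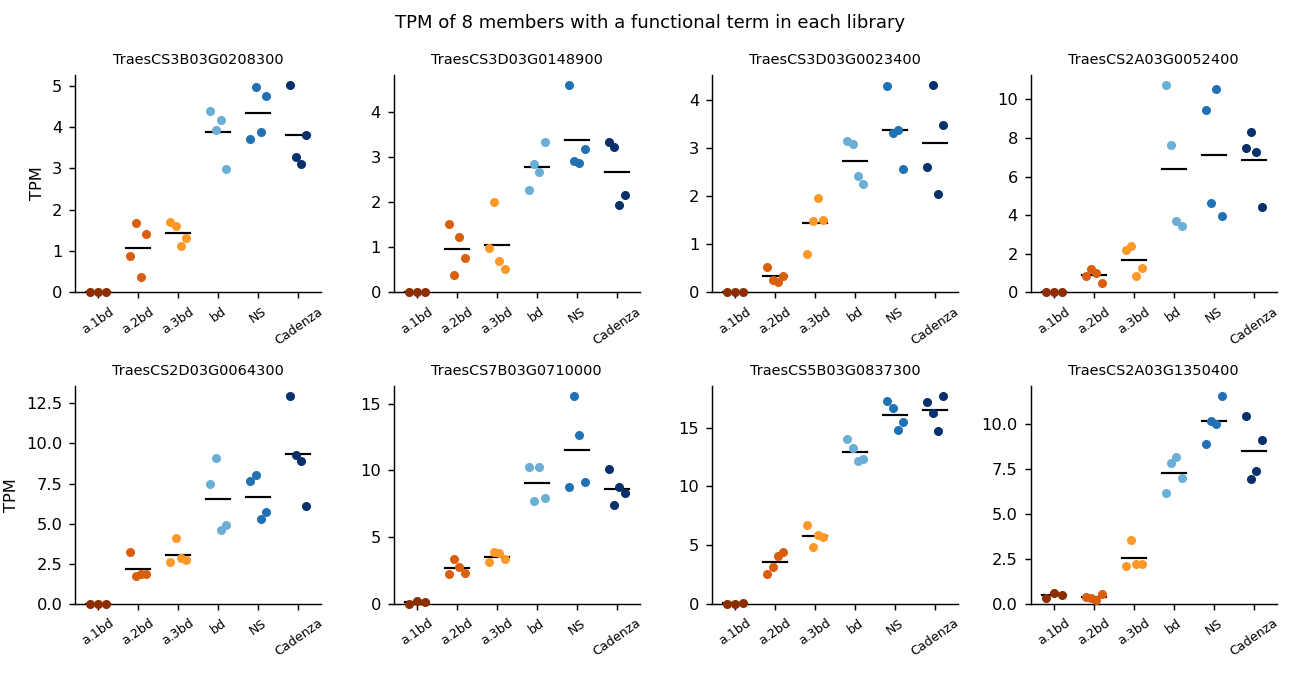
TPM of 8 of the 90 genes that stand in a term of the study, in each library, with a bar at the genotype mean and the genotype names shortened as in the plot of the 8 other genes. All but TraesCS2A03G1350400 have a lower mean in *tabri1-a.1bd* than in *tabri1-a.2bd*, while TraesCS2A03G1350400 is at 0.19 to 0.591 TPM in both. TraesCS3D03G0023400 is also low in *tabri1-a.2bd*, at 0.207 to 0.531 TPM.

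The 63 genes found in no list as held may include genes of the lists cut short. Of the 63, 31 were in graded order (22.3% of all genes tested), and 26 were called lower in *tabri1-a.1bd* than in *tabri1-a.3bd* (21.0%). The median level left of the 63 was 1.26% in *tabri1-a.1bd*, 16.7% for *tabri1-a.2bd* and 26.8% for *tabri1-a.3bd*. The 3 genes called in the double mutant were among the 63. The difference from the annotated genes was not tested.

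The 90 genes lay on 20 of the 21 chromosomes, with 11 on 2D, 10 on 7A, 8 each on 2A and 6B, and 0 on 3A. These were 12.2% on 2D, 11.1% on 7A and 8.89% each on 2A and 6B. Of the high-confidence genes tested, 5.57% were on 2D, 4.93% on 7A, 5.61% on 2A, 4.02% on 6B and 5.03% on 3A. Whether the spread was uneven was not tested. The A, B and D subgenomes held 31, 24 and 35 of them, which is 34.4%, 26.7% and 38.9% against 33.7%, 32.9% and 33.4% of the high-confidence genes tested. In identifier order, 4 pairs had no other high-confidence gene between them. To see whether neighbouring genes were near 0 as well, the 5 expressed genes on each side were examined for the 83 genes that averaged 1 TPM or more in Cadenza. None of the 83 had 2 or more neighbours at or under 5% of Cadenza in every library of *tabri1-a.1bd* and likewise of *tabri1-a.2bd*, and 4 had 1 such neighbour.

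None of the 76 genes of the BR pathway list met the same threshold, which the rule would have left out in any case. Of the 68 that were tested, 12 were called lower and 24 higher in *tabri1-a.1bd* than in *TaBRI1-NS*, against 19.3% and 24.5% of all genes tested. In *tabri1-a.2bd* 0 were called lower and 11 higher, against 3.47% and 3.99% of all genes, and in *tabri1-a.3bd* 0 lower and 4 higher, against 0.649% and 1.65%. The medians were 0.26 in *tabri1-a.1bd*, against 0.10 over all genes, 0.23 against 0.08 in *tabri1-a.2bd* and 0.22 against 0.08 in *tabri1-a.3bd*. The 11 calls in *tabri1-a.2bd* were 6 or 4 without its replicate 2 or 4, and 7 or 5 without replicate 2 or 3 of *TaBRI1-NS*. The 4 calls in *tabri1-a.3bd* were 2, 0 or 2 without its replicate 2, 3 or 4, and 2, 0 or 1 without replicate 1, 3 or 4 of *TaBRI1-NS*.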

How the data were processed

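RNA of 23 libraries was sequenced. Per the study's methods, the authors trimmed paired reads (Trimmomatic 0.39), mapped them to the IWGSC wheat assembly (STAR 2.7.8a), counted them per gene (HTSeq 0.11.3) and deposited TPM per gene and library. How reads shared by homoeologues were counted is not given in the sources used here. Whole reads could be recovered from the TPM for 100% of the 94749 genes that had a value above 0 in 8 or more libraries.

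The 90 genes and all lists were chosen with earlier results of these data known. Log2(TPM + 0.5) of genes with at least 0.5 TPM in at least 3 libraries was modelled over all 6 genotypes at once in limma, each genotype being 1 term (eBayes with trend and robust) and Benjamini-Hochberg adjustment. Fits were tested on simulated data. Alternatives were pseudocounts of 0.1 and 1, filters of none and 2 TPM, size factors, array weights, a replicate block, a fit of the compared genotypes alone, a change of over 2-fold, limma voom on the recovered reads, genotype medians, a smallest fall of 1, and each library left out. Genes were named by a rule: the 6 with the largest smallest fall, the 4 highest in *TaBRI1-NS*, up to 3 per direction with the largest differences in each contrast of triple mutants among those without overlap, up to 3 per term list, 2 on each side of the threshold, and up to 3 called in *tabri1-bd*. The RefSeq gene table matched 0 of the identifiers, so no gene names, positions or sequences are given. Replicate numbers were not used to pair the libraries in the main fit. R 4.3.3, limma 3.58.1, statmod 1.5.0, Python 3.11.15, numpy 2.4.6, pandas 2.3.3 and matplotlib 3.10.9 were used.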

Additional observations from a re-analysis of the deposited data

Results flagged for a closer look

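In 11 of 127 groups of 4 libraries, over the genes whose library values are given above, 1 library stood apart from the other 3 by Dixon's criterion, which chance meets in about 1 group in 20. The 3 libraries of *tabri1-a.1bd* are too few for it. In 4 of the 11 cases 1 library was above 0 and the others were at 0. These were TraesCS6A03G0106500 in *tabri1-a.2bd* (0.179 TPM), TraesCS6B03G0148100 in *tabri1-a.2bd* (0.0913 TPM) and in *tabri1-a.3bd* (0.693 TPM), and TraesCS6D03G0113000 in *tabri1-a.3bd* (0.038 TPM).

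Replicate 1 of *tabri1-bd* had 1.00 TPM of TraesCS6B03G0148100, against 1.9 to 1.91 TPM in the others. Replicate 1 of *tabri1-a.3bd* had 27.5 TPM of TraesCS5D03G0659000, against 11.0 to 11.9 TPM. TraesCS2D03G0064300 was higher in replicate 1 of *tabri1-a.2bd* (3.22 TPM, the others at 1.75 to 1.86 TPM) and in replicate 2 of *tabri1-a.3bd* (4.1 TPM, the others at 2.61 to 2.86 TPM). Replicate 2 of *tabri1-a.3bd* also had the highest TraesCS2A03G1350400 (3.54 TPM, the others at 2.12 to 2.2 TPM). TraesCS6A03G0939400 was at 31.1 TPM in replicate 4 of *TaBRI1-NS*, against 52.9 to 57.1 TPM in its other replicates. TraesCS2D03G0057300 was at 86.8 TPM in replicate 3 of Cadenza, against 112 to 115 TPM.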

How the results depend on the processing

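None of the 12 single-gene tests changed direction under any alternative run. The split of calls between *TaBRI1-NS* and Cadenza turned to 1 lower and 2 higher with size factors, against 3 lower and 2 higher. Array weights gave 17 of the 90 genes called between *tabri1-a.1bd* and *tabri1-a.2bd*, 28 between *tabri1-a.1bd* and *tabri1-a.3bd*, then 9 between *tabri1-bd* and *TaBRI1-NS*, and their estimation gave a convergence warning. Pseudocount 0.1 gave 0 calls between *tabri1-bd* and *TaBRI1-NS* and 1 between *TaBRI1-NS* and Cadenza, and pseudocount 1 gave 5 between *tabri1-bd* and *TaBRI1-NS*. Between *TaBRI1-NS* and Cadenza 3 were called with size factors, with the compared genotypes alone, and at a change of over 2-fold. The rule chose 234 genes at pseudocount 0.1 (before the limit of 200) and 43 at a smallest fall of 1. With size factors 2 BR pathway genes were called in *tabri1-a.3bd*. The cause of these changes was not tested.

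With 1 library left out, the calls ranged from 29 to 37 between *tabri1-a.1bd* and *tabri1-a.2bd*, 14 to 18 between *tabri1-a.2bd* and *tabri1-a.3bd*, 44 to 53 between *tabri1-a.1bd* and *tabri1-a.3bd*, 0 to 4 between *tabri1-bd* and *TaBRI1-NS*, and 1 to 5 between *TaBRI1-NS* and Cadenza. The rule chose 84 to 109 genes, and 54 to 59 of the 90 were in graded order. The ratio of falls was 0.474 to 0.561 for *tabri1-a.3bd* over *tabri1-a.1bd* and 0.715 to 0.765 for *tabri1-a.2bd* over *tabri1-a.1bd*. With all libraries, these ratios were 0.41 and 0.61 at pseudocount 0.1, and 0.58 and 0.78 at pseudocount 1. BR pathway calls ranged from 27 to 43 for *tabri1-a.1bd*, from 4 to 12 for *tabri1-a.2bd* and from 0 to 3 for *tabri1-a.3bd*.

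The sources used here do not say that a replicate number marks shared plants or days, and the correlation of same-numbered libraries exceeded 0.1 in 1 of 55 pairs. A replicate block gave 36, 15, 50, 2 and 3 calls in the 5 contrasts, in the order above, and 35, 11 and 4 BR pathway calls. Of 216 single-gene alternatives, 195 kept their call and 21 lost it, all of these for the 3 genes called in *tabri1-bd*. Steps in genes near 0 in a triple mutant may be limited by depth, which was not tested.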

Other observations

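Among low-confidence gene models, which the choice of the 90 genes left out, 19 met the same threshold. The one with the largest smallest fall, TraesCS3A03G0863400LC, had means of 0 TPM in *tabri1-a.1bd*, of 0 TPM in *tabri1-a.2bd* and of 0 TPM in *tabri1-a.3bd*, against 0.963 TPM in *tabri1-bd*, 0.986 TPM in *TaBRI1-NS* and 1.45 TPM in Cadenza. A more abundant one, TraesCS5A03G0684000LC, chosen after its values were seen, had means of 1.2 TPM in *tabri1-a.1bd*, of 5.29 TPM in *tabri1-a.2bd* and of 26.3 TPM in *tabri1-a.3bd*, against 69.2 TPM in *tabri1-bd*, 98.9 TPM in *TaBRI1-NS* and 59.6 TPM in Cadenza.

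TraesCS2B03G0080400, a gene of the flavonoid list outside the 90, had means of 0.21 TPM in *tabri1-a.1bd*, of 15.8 TPM in *tabri1-a.2bd* and of 30.2 TPM in *tabri1-a.3bd*, against 50.5 TPM in *tabri1-bd*, 56.5 TPM in *TaBRI1-NS* and 47.7 TPM in Cadenza. It was named after its values were seen.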
